A study of Mus musculus with 5 samples.

Results

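The UDP-glucuronosyltransferases (UGT), the glutathione S-transferases (GST) and the sulfotransferases (SULT) were compared between *Lifr* fl/fl;Alb-Cre livers and their *Lifr* fl/fl controls. Members were chosen by gene symbol alone, as symbols that start with Ugt1 to Ugt3, with Gst followed by 1 class letter and a number, or with Sult and a number. The rule found 51 of the 23793 genes in the table, namely 12 UGT, 21 GST and 18 SULT genes. Of these, 36 averaged 0.5 FPKM or more over all 5 mice and were tested (11 UGT, 19 GST and 6 SULT), and the other 15 were not tested. None of the 36 tested members passed an adjusted p of 0.05 in limma, in either direction, against 0.565% of all 11687 genes tested. At an unadjusted p under 0.05 in limma 6 members differed, against 9.63% of all genes. Sulfotransferase genes *Sult1d1* and *Sult1a1* came closest on the higher side, and *Gstp2* had the largest difference on the lower side.

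Liver RNA of 2 control and 3 knockout mice was sequenced, all C57BL/6 and 12 weeks old, with no treatment given in the labels. The labels write the control genotype as Lifrfl/fl and the knockout genotype as Lifrfl/fl;Crealb/alb, so the floxed *Lifr* alleles are common to both groups and Cre, driven by the albumin promoter in hepatocytes, is carried by the knockouts alone. Effects of Cre and of *Lifr* loss therefore cannot be told apart. Levels are FPKM, the fragments mapped to a gene scaled to its transcript length and to the total mapped in its library, so levels of different genes can be set side by side. Counts are not part of the table, so the depth of each library is unknown.

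*Lifr*, which encodes the leukemia inhibitory factor receptor, was at 132 and 151 FPKM in the controls and at 32.8, 44.3 and 54.8 FPKM in the knockouts. Its level fell by 1.71 on the log2 scale (limma adjusted p = 0.0045), a call that was lost with no filter on low values (limma adjusted p = 0.062) and in both distinct fits that left out 1 control value, where the log2 fold change was -1.81 and -1.61. In those fits the lone control value is assumed to vary like the knockouts. Cre deletes a single exon, so reads of the other exons can remain, as can reads of liver cells without Cre. What makes up the remaining level was not tested. Over all 11687 genes tested, 42 were called higher (0.359%) and 24 lower (0.205%), and the median log2 fold change was 0.03. In the table, each gene's values are sorted as text within a group (15586 of 15586 genes with distinct values), so a column cannot be read as 1 mouse, and values below are given by group. Of 15 hepatocyte markers, 14 were tested with a median log2 fold change of 0.06, but *Alb* is listed at 0 in all mice and *Apob* in the 3 knockouts, as are *C3* and *Serpina3k*, and these genes are described only as listed at 0. *Apob*, *C3* and *Serpina3k* count among the genes called lower, which numbered 19 with these 3 left out of the fit, and without *Apob* the hepatocyte median was 0.09. All 13 Kupffer cell and macrophage markers had log2 fold changes above 0 (median 0.46), against 54.9% of all genes tested. Of them 0 were called, and 8 were higher at an unadjusted p under 0.05 in limma, against 6.08% of all genes. Their summed level was 317 FPKM in controls and 430 FPKM in knockouts. The neutrophil marker *S100a9* (1.08 to 3.42 FPKM) and *Tff3* (3.81 to 24.1 FPKM), from the cholangiocyte list, were called higher in limma. The summed level of the neutrophil list was 4.65 FPKM in controls and 10.5 FPKM in knockouts (4 of 13 genes tested, 4 above 0). Its largest parts were *S100a9* and *S100a8*, the latter at 1.47 FPKM in controls and 4.13 FPKM in knockouts (limma adjusted p = 0.059). *Csf3r* went from 0.787 to 1.15 FPKM (limma adjusted p = 0.59). The neutrophil genes *Mpo* and *Elane* were at most 0.181 FPKM in any mouse and were not tested. The cholangiocyte list summed to 39.5 FPKM in controls and 63.7 FPKM in knockouts (6 of 10 tested, 4 above 0), with *Krt7* and *Krt19* at most 0.816 FPKM in any mouse. Endothelial and stellate cell markers had median log2 fold changes of -0.08 and -0.07. The part of other cell types in the values below was not tested, and in whole liver fewer cells of a type and less RNA per cell cannot be told apart.

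Conjugation makes lipophilic drugs, hormones and waste products soluble enough to leave the hepatocyte in bile or blood. UGT enzymes, anchored in the endoplasmic reticulum, transfer glucuronic acid from UDP-glucuronic acid. GST enzymes join glutathione to electrophiles, and SULT enzymes transfer a sulfonate group from PAPS to phenols, steroids and bile acids. Several of these genes arose by tandem duplication, so neighbours can be nearly identical in sequence. This matters for their values, since only uniquely mapped reads were kept by the authors. Among 35 tested members with a GENCODE transcript, 13 had no 50-base window in common with another gene's transcript, 22 had at least 1, and in 11 such windows made up over 10% of the transcript. The values of these 11 are uncertain, and besides the members named below they include *Gstm1* (23.1%), *Gstm3* (28.8%), *Gstm6* (11.5%), *Gstt3* (26.0%) and *Ugt2b37* (18.3%). The window length was chosen here, because the read length is not given in the sources used here.

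Among pairs of members, the largest share of common windows was found for *Gstp1* and *Gstp2*, whose first coding bases are shown because one of them is the most abundant member and the other the member with the lowest log2 fold change. Capitals mark the bases that differ between the 2 genes (positions 1 to 60 of the coding sequence, GENCODE annotation of GRCm38, chromosome 19).
Gstp1: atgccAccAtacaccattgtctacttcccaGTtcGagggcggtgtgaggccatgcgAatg
Gstp2: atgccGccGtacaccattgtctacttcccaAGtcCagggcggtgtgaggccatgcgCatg
The window holds 6 of the 12 differences in 630 coding bases, and the 2 coding sequences were 98.1% identical. Of the 50-base windows in the *Gstp2* transcript, 72.6% also occur in another gene, and 64.3% occur in *Gstp1*. Reads from the 2 genes can thus be told apart only over the stretches that hold a difference, and the values of both are uncertain.

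A similar likeness was seen at the starts of 4 of the 7 UGT2B genes on chromosome 5. The 60 bases just before the RefSeq start of these 4 are shown, on the minus strand of GRCm38.p6. They lie at chr5:87092556-87092615 (*Ugt2b36*), chr5:87140341-87140400 (*Ugt2b5*), chr5:87254789-87254848 (*Ugt2b37*) and chr5:87424204-87424263 (*Ugt2b38*). Capitals mark AGGTCA, the hexamer bound by many nuclear receptors.
Ugt2b36: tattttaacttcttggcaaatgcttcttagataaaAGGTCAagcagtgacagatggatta
Ugt2b5: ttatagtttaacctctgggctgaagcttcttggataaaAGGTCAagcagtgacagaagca
Ugt2b37: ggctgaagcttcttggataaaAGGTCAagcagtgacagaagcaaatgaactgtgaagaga
Ugt2b38: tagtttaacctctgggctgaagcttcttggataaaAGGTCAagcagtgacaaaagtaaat
The 4 windows share an unbroken run of 22 bases that holds the hexamer. AGGTCA, searched on both strands from 250 bases before to 50 bases after each start, was found in 7 of 18 UGT windows (38.89%), in 2 of 27 GST windows, in 2 of 16 SULT windows and in 16.26% of 32851 windows of all genes. The 7 UGT windows include the 4 shown, which hold the same run of bases and so are not separate finds. The 4 genes with the shared run did not have like levels, with control means of 417 FPKM for *Ugt2b36*, 574 FPKM for *Ugt2b5*, 3.49 FPKM for *Ugt2b37* and 20.6 FPKM for *Ugt2b38*. The letters TTCNNNGAA, the element bound by STAT factors, were found in 1 UGT, 2 GST and 1 SULT window, against 8.298% of all windows. A match of letters is a description and not a binding site.

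**Figure D1:**
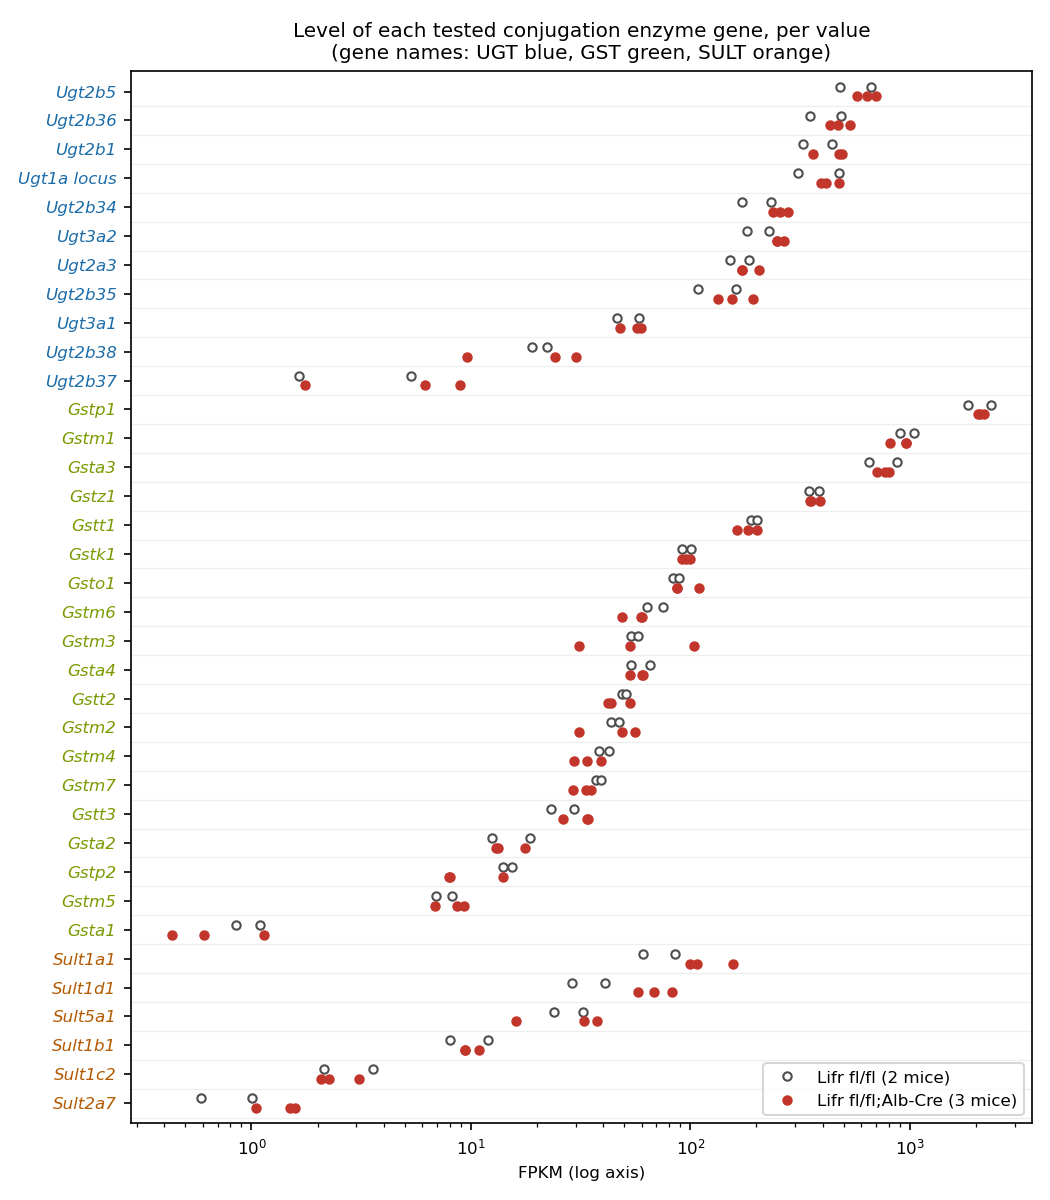
Level of each of the 36 tested members in FPKM on a log axis, with 2 open points for *Lifr* fl/fl mice and 3 filled points for *Lifr* fl/fl;Alb-Cre mice, ordered by family and level. The groups do not overlap for *Sult1d1*, *Sult1a1*, *Sult2a7*, *Ugt2b34* and *Ugt3a2*, where the knockouts are above, and for *Gstp2*, *Gstm6* and *Gstm7*, where they are below.

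The levels of the families differed widely. GST genes summed to 4992 FPKM in the controls and 4911 FPKM in the knockouts, a ratio of 0.98. UGT genes summed to 2554 FPKM and 2930 FPKM, a ratio of 1.15. The 18 SULT genes found by symbol summed to 150 FPKM and 234 FPKM, a ratio of 1.56. This sum and the SULT shares below leave out *Sult2a8*, which is listed under another symbol. Its mean was 459 FPKM in the controls and 532 FPKM in the knockouts. Each sum was dominated by a few members. In the controls *Gstp1* held 41.9% of the GST sum, *Ugt2b5* held 22.5% of the UGT sum and *Sult1a1* held 48.7% of the SULT sum. In the knockouts these shares were 42.7%, 21.8% and 51.8%. The values of *Gstp1* and *Ugt2b5* are uncertain, since parts of their transcripts occur in other genes, and the GST and UGT sums and shares are uncertain with them. Of all 51 members, 38 were above 0 in every mouse, and 4 (*Sult1c1*, *Sult2a3*, *Sult2a4* and *Sult2a5*) were listed at 0 in all of them.

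Among the tested members, the log2 fold change was above 0 for 19 of 36 (52.8%), against 54.9% of all genes tested. The groups did not overlap, with the knockouts above, for 5 of 36 members (13.9%, against 15.1% of all genes), and with the knockouts below for 3 of 36 (8.33%, against 10.7%). At an unadjusted p under 0.05 in limma, 5 members were higher (13.9%, against 6.08% of all genes) and 1 was lower (2.78%, against 3.56%). The counts without overlap were thus close to the background for the members as a whole. No test of a whole family or of a difference between families was run. No difference of any member passed an adjusted p of 0.05, and 1 member (*Sult1d1*) passed one of 0.1 in limma, against 0.933% of all genes in either direction.

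Sulfotransferases had the largest differences. *Sult1d1* (XLOC_016348, chr5:87554650-87569006), whose enzyme sulfonates dopamine and other catechols in the mouse, was at 28.7 and 40.9 FPKM in the controls and at 57.5, 68.2 and 82.5 FPKM in the knockouts. All 3 knockout values lay above both control values. The mean was 34.8 ± 8.62 FPKM (SD, n = 2) in the controls and 69.4 ± 12.5 FPKM (SD, n = 3) in the knockouts. The log2 fold change was 1.0 (95% interval 0.58 to 1.42, limma adjusted p = 0.057), just outside the threshold. It passed with a pseudocount of 0.01 FPKM (limma adjusted p = 0.049). Over 5 distinct fits that left out 1 value per gene (2 for the controls, 3 for the knockouts), the log2 fold change ranged from 0.75 to 1.25. *Sult1d1* passed in 1 of these fits (limma adjusted p = 0.032). That fit left out the knockout value of 57.5 FPKM, the one nearest to the controls, which by itself widens the difference. No 50-base window of its transcript occurs in a transcript of another gene.

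*Sult1a1* (XLOC_020002, chr7:126672865-126690443), the main enzyme for small phenols, was the most abundant SULT member by symbol. It was at 60.7 and 85.1 FPKM in the controls and at 99.3, 108 and 156 FPKM in the knockouts. Again all 3 knockouts lay above both controls, with 1 knockout well apart from the other 2. The mean was 72.9 ± 17.3 FPKM (SD, n = 2) against 121 ± 30.4 FPKM (SD, n = 3), and the log2 fold change was 0.72 (95% interval 0.26 to 1.19, limma adjusted p = 0.24).

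*Sult2a7* was the one tested member of the Sult2 group, whose enzymes sulfonate hydroxysteroids and bile acids. It was low, at 0.586 and 1.01 FPKM in the controls and at 1.05, 1.49 and 1.59 FPKM in the knockouts, and the groups stood close without overlap. Its log2 fold change was 0.74 (95% interval 0.15 to 1.33, limma adjusted p = 0.40), and with a pseudocount of 1 FPKM it was 0.41.

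The 3 other tested sulfotransferases overlapped between the groups. *Sult1b1*, whose enzyme acts on thyroid hormones, was at 8.04 and 12.0 FPKM in the controls and at 9.36, 9.39 and 10.8 FPKM in the knockouts, a log2 fold change of 0.00 (95% interval -0.38 to 0.39). *Sult1c2* was at 2.15 and 3.56 FPKM and at 2.07, 2.25 and 3.08 FPKM, and *Sult5a1* at 23.9 and 32.5 FPKM and at 16.1, 32.8 and 37.6 FPKM. Their log2 fold changes were -0.18 and -0.04 (limma adjusted p = 0.84 and 0.97). Over the 6 tested SULT members 4 were above 0 (66.7%, against 54.9% of all genes), with a median of 0.36, against a median of 0.03 over all genes. The knockouts lay above without overlap for 3 of the 6 (50%, against 15.1% of all genes). With the shift between groups removed 3 of 6 were above 0, since *Sult1b1* lies at 0.

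The other 12 SULT members were not tested, and none of their values exceeded 0.818 FPKM. That highest value belonged to *Sult1e1*, the estrogen sulfotransferase, which was at 0 and 0.128 FPKM in the controls and at 0.0690, 0.351 and 0.818 FPKM in the knockouts, with overlap. *Sult2a1* to *Sult2a6*, *Sult2b1*, *Sult3a1*, *Sult4a1*, *Sult6b1* and *Sult1c1* were at 0.221 FPKM or less in every mouse. In the mouse several Sult2a genes and *Sult3a1* are known as female-predominant liver genes. The paper's reporting summary gives the sex of its mice as male, without naming the sequenced ones.

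The rule does not find 3 sulfotransferase genes that the table lists under other symbols. *Gm4794* (*Sult3a2*) was listed at 0 and *Gm766* (*Sult6b2*) was at most 0.0384 FPKM, and the third is given for comparison. *2810007J24Rik* (XLOC_019157), the older symbol of *Sult2a8*, a bile acid sulfotransferase of mouse liver, was at 386 and 532 FPKM in the controls and at 503, 512 and 579 FPKM in the knockouts. The groups overlapped, with a log2 fold change of 0.23 (95% interval -0.13 to 0.59, limma adjusted p = 0.70). Its mean of 459 FPKM in the controls was above the sum of 150 FPKM over all 18 SULT members.

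*Sult1d1* stands in the same cluster of chromosome 5 as the UGT2 genes. From *Ugt2b34* to *Sult1e1* this cluster spans chr5:86889770-87591611 and holds 12 members. Of 10 tested, 9 had a log2 fold change above 0, against 54.9% of all genes tested. The difference did not run evenly along it. *Sult1b1*, at 0.00, is next to *Sult1d1*, at 1.0, and the intervals of the 2 genes did not overlap. The difference between them was not tested. The UGT2 genes of the cluster lay between -0.10 (*Ugt2b38*) and 0.61 (*Ugt2b37*). The RefSeq promoter window of *Sult1d1*, the member with the largest difference, is shown for GRCm38.p6, minus strand, chr5:87568957-87569256, from 250 bases before to 50 bases after its start. Capitals mark the 2 motif matches, CACGC, which is the dioxin receptor core GCGTG read on the opposite strand, and TTTATA, which is TATAAA on the opposite strand.
Sult1d1: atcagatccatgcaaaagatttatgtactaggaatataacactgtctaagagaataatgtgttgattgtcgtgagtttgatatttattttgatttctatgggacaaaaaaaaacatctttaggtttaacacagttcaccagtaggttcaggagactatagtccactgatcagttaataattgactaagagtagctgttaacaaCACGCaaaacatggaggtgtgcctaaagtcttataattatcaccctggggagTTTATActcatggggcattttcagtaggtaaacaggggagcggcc
GCGTG was found in 32.39% and TATAAA in 13.62% of the windows of all genes, on either strand, and in 4 of 16 SULT windows each. The window held no match of AGGTCA, of TTCNNNGAA or of TGACNNNGC, the antioxidant response element.

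**Figure D2:**
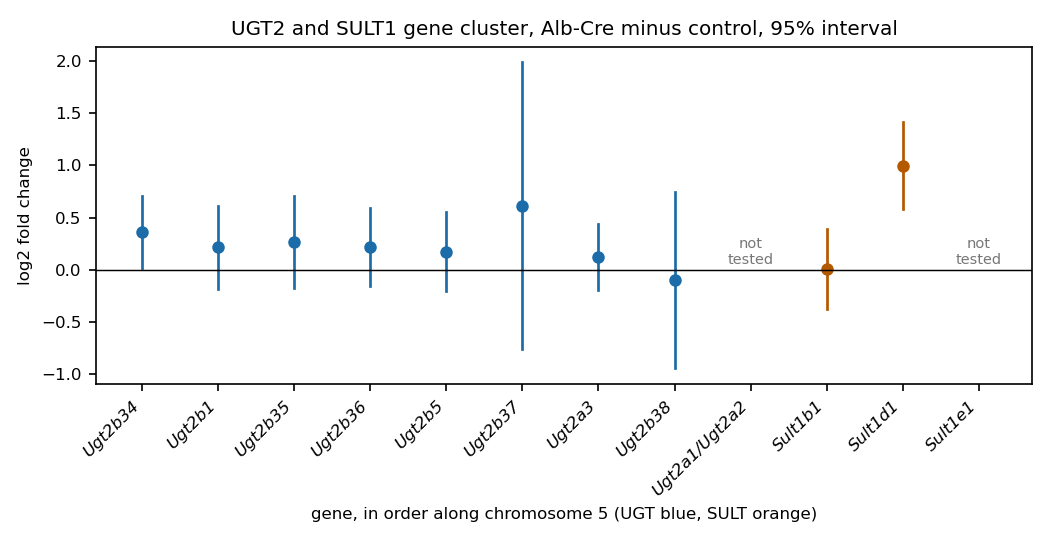
Log2 fold change (knockout minus control) with its 95% interval from limma for the tested genes of the UGT2 and SULT1 cluster, in their order along chromosome 5. *Sult1d1* at 1.0 stands beside *Sult1b1* at 0.00, and 2 genes were not tested.

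Among the UGT genes, 10 of 11 tested members lay above 0 on the log2 fold change scale (90.9%, against 54.9% of all genes tested). Their median was 0.21, with a range of -0.10 to 0.61. No member passed the test, and the smallest adjusted p was 0.50 in limma. The 2 control values of these genes lay further apart than is usual in the table. The higher control value was 1.36 times the lower in the median UGT member (range 1.18 to 3.24), against 1.46 in the SULT family, 1.11 in the GST family and 1.13 over all genes tested. When 1 control value per gene was left out, 6 or 7 of 11 members were above 0, and when 1 knockout value was left out, 10 or 11 were. The value was picked at random for each gene, so each count mixes genes kept at their lower and higher control. Against the higher control alone, *Ugt2b5* was at -0.07, *Ugt2b36* at -0.02, *Ugt2b1* at -0.01 and the *Ugt1a* locus at -0.15. Against the lower control alone they were at 0.41, 0.45, 0.43 and 0.46. *Ugt2b34* and *Ugt3a2* stayed above 0, at 0.14 and 0.15 against the higher control alone. With the shift between groups removed the median was 0.19, and 10 of 11 were above 0.

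*Ugt2b34* (XLOC_016339) was at 172 and 233 FPKM in the controls and at 238, 256 and 279 FPKM in the knockouts. *Ugt3a2* (XLOC_006786) was at 181 and 229 FPKM and at 247, 249 and 266 FPKM. These 2 of 11 were the UGT members without overlap (18.2%, against 15.1% of all genes with the knockouts above). All knockouts lay above both controls, by a small margin in *Ugt2b34*. Their means went from 203 to 258 FPKM and from 205 to 254 FPKM. The log2 fold changes were 0.36 (95% interval 0.02 to 0.71, limma adjusted p = 0.50) and 0.32 (95% interval 0.01 to 0.62, limma adjusted p = 0.50). UGT2B enzymes glucuronidate steroids, bile acids and drugs, whereas UGT3A2 in humans uses UDP-glucose and UDP-xylose in place of UDP-glucuronic acid. *Ugt3a1*, whose human counterpart uses UDP-N-acetylglucosamine, was at 46.2 and 58.3 FPKM and at 47.6, 56.8 and 59.5 FPKM, with overlap.

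The most abundant UGT genes overlapped between the groups. *Ugt2b5* was at 478 and 669 FPKM in the controls and at 576, 640 and 704 FPKM in the knockouts (log2 fold change 0.17, 95% interval -0.20 to 0.55). *Ugt2b36* was at 350 and 483 FPKM and at 432, 471 and 536 FPKM (0.22, 95% interval -0.15 to 0.59). *Ugt2b1* was at 327 and 442 FPKM and at 362, 478 and 492 FPKM (0.21, 95% interval -0.19 to 0.61). In each of the 3 genes 1 control lay below all knockouts and the other among them. The limma adjusted p was 0.78, 0.72 and 0.75 in that order. Of the 50-base windows of *Ugt2b5* 41.7% occur in other genes, mostly in *Ugt2b38*, so its value is uncertain too.

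The *Ugt1a* locus (XLOC_000269, chr1:88055411-88220002) is a single row with 8 symbols, because its transcripts join alternative first exons to shared last exons. It includes *Ugt1a1*, which encodes the bilirubin-conjugating enzyme. The locus was at 311 and 474 FPKM in the controls and at 395, 416 and 475 FPKM in the knockouts, and the knockouts lay almost wholly within the range of the controls. The mean was 392 ± 116 FPKM (SD, n = 2) and 429 ± 41.3 FPKM (SD, n = 3), with a log2 fold change of 0.16 (95% interval -0.25 to 0.56, limma adjusted p = 0.82). The values of its single isoforms are not used here.

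The other UGT members had wide or small differences. *Ugt2b35* was at 108 and 161 FPKM and at 133, 155 and 193 FPKM (log2 fold change 0.26), and *Ugt2a3* at 152 and 185 FPKM and at 172, 172 and 206 FPKM (0.12). *Ugt2b37* had the highest log2 fold change of the family, 0.61, with an interval of -0.76 to 1.99, as it varied within both groups, from 1.65 to 5.33 FPKM in the controls and from 1.75 to 8.94 FPKM in the knockouts. *Ugt2b38*, the one tested UGT member below 0, was at 18.9 and 22.3 FPKM and at 9.63, 24.2 and 30.0 FPKM. Of its 50-base windows 37.4% occur in other genes, mostly in *Ugt2b5*, so its value is uncertain. On the FPKM scale its means were 20.6 and 21.3 FPKM, so the sign of its difference depends on the scale. The joint row of *Ugt2a1* and *Ugt2a2*, known from the olfactory epithelium, was at most 0.268 FPKM and was not tested.

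**Figure D3:**
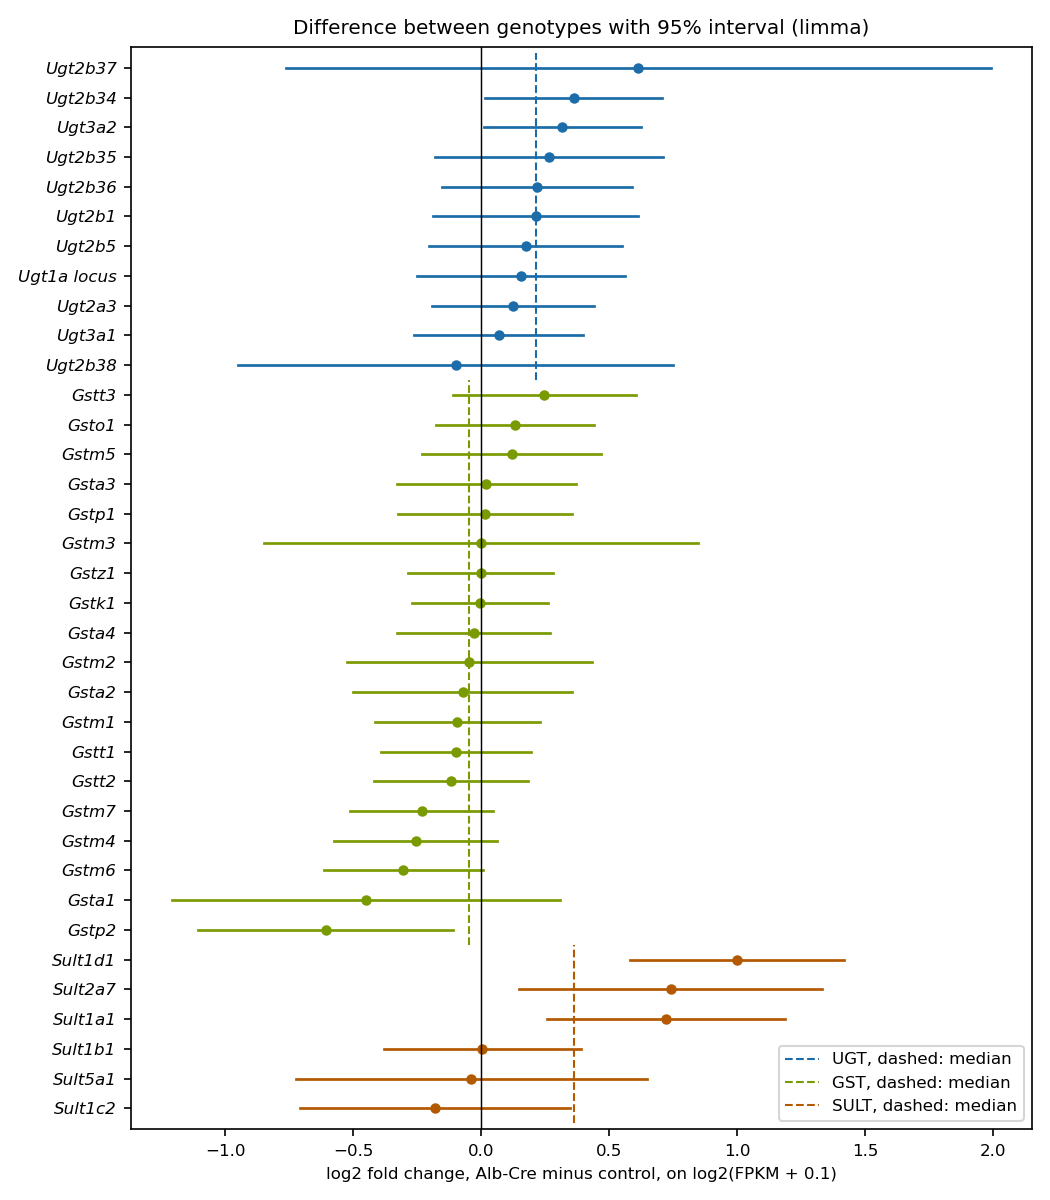
Log2 fold change (knockout minus control, on log2(FPKM + 0.1)) with its 95% interval from limma for the 36 tested members, with a dashed line at the median of each family. The medians are 0.21 for UGT, -0.05 for GST and 0.36 for SULT, and the intervals of 30 members include 0.

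Among the glutathione S-transferases, *Gstp2* had the log2 fold change furthest from 0. The log2 fold change was above 0 for 5 of 19 tested members (26.3%, against 54.9% of all genes), around a median of -0.05. It ranged from -0.61 to 0.25, and none passed the test (smallest limma adjusted p 0.41). The knockouts lay below without overlap for 3 of 19 (15.8%, against 10.7% of all genes). The count above 0 was 3 of 19 with the shift between groups removed and 6 of 19 with a pseudocount of 1 FPKM, since many members lie near 0. In fits that left out 1 value, picked at random for each gene, 5 to 9 of 19 were above 0.

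*Gstp1* (XLOC_010492, chr19:4035411-4037912), the pi class enzyme and the most abundant member, was at 1841 and 2344 FPKM in the controls and at 2041, 2077 and 2176 FPKM in the knockouts. All knockouts lay between the 2 controls, and the log2 fold change was 0.01 (95% interval -0.33 to 0.35). Its neighbour *Gstp2* (XLOC_010493, chr19:4040288-4042221) was at 14.1 and 15.4 FPKM in the controls and at 7.98, 8.02 and 13.9 FPKM in the knockouts. The knockouts lay below, but 1 of them almost met the controls. The log2 fold change of *Gstp2* was -0.61 (95% interval -1.11 to -0.11, limma adjusted p = 0.41). In 1 of the 5 distinct fits that left out 1 value, it was -0.87 with a limma adjusted p of 0.038. That fit left out the knockout value of 13.9 FPKM, the one nearest to the controls, which by itself widens the difference. The 2 genes differ at the few bases shown above, so the split of reads between them is uncertain.

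The mu class, detoxifying enzymes that lie together on chromosome 3, had 7 tested members with a median log2 fold change of -0.09. Of these 1 was above 0, against 54.9% of all genes tested, and 6 were below. Their summed level was 1228 FPKM in the controls and 1149 FPKM in the knockouts. *Gstm6* was at 63.7 and 75.0 FPKM in the controls and at 49.0, 59.6 and 59.9 FPKM in the knockouts, and *Gstm7* at 37.3 and 39.1 FPKM and at 29.1, 33.4 and 35.2 FPKM. In both genes all knockouts lay below all controls, as they did in 10.7% of all genes tested. The log2 fold changes were -0.30 (95% interval -0.61 to 0.00, limma adjusted p = 0.53) and -0.23 (95% interval -0.51 to 0.05, limma adjusted p = 0.60). *Gstm1*, the most abundant mu class gene, overlapped at 899 and 1044 FPKM in the controls and 815, 957 and 959 FPKM in the knockouts (log2 fold change -0.09, 95% interval -0.42 to 0.23). *Gstm3* varied most among the knockouts, at 31.0, 53.1 and 104 FPKM, around controls of 53.8 and 57.5 FPKM. *Gstm4*, *Gstm2* and *Gstm5* had log2 fold changes of -0.26, -0.05 and 0.12, each with overlap.

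The alpha class is known for the conjugation of lipid peroxidation products and aflatoxin epoxide. *Gsta3*, its main member in these livers, was at 650 and 872 FPKM in the controls and at 710, 775 and 807 FPKM in the knockouts, all between the 2 controls (log2 fold change 0.02, 95% interval -0.33 to 0.37). *Gsta4*, whose enzyme acts on 4-hydroxynonenal, was at 53.5 and 65.1 FPKM and at 52.8, 60.1 and 60.8 FPKM. *Gsta2* was at 12.5 and 18.5 FPKM and at 13.0, 13.3 and 17.5 FPKM, and *Gsta1* at 0.849 and 1.09 FPKM and at 0.434, 0.607 and 1.14 FPKM. The groups overlapped in all 4 genes. Windows shared with other genes made up 64.2% of the *Gsta2* transcript and 89.7% of the *Gsta1* transcript, so the values of these 2 are uncertain.

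The remaining classes hold enzymes with roles beyond drug conjugation. *Gstz1*, which isomerizes maleylacetoacetate in tyrosine breakdown, was at 348 and 385 FPKM in the controls and at 351, 356 and 391 FPKM in the knockouts, a log2 fold change of -0.00 with one of the narrower intervals (-0.29 to 0.28). *Gstk1*, a mitochondrial and peroxisomal enzyme, was at 91.2 and 101 FPKM and at 91.1, 95.9 and 99.8 FPKM. *Gstt1*, of the theta class, was at 189 and 202 FPKM and at 163, 184 and 201 FPKM. The groups overlapped in all 3 genes. *Gstt2* and *Gstt3* had log2 fold changes of -0.12 and 0.25, and *Gsto1*, which reduces dehydroascorbate, one of 0.13, also with overlap. *Gsto2* and *Gstt4* were at most 0.201 FPKM and were not tested.

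The genes that surround these enzymes were taken from 11 lists with 143 genes, of which 127 were tested. Of these 3 were called higher and 0 lower by limma , against 0.359% and 0.205% of all genes. At an unadjusted p under 0.05 in limma 10 were higher (7.87%, against 6.08% of all genes) and 9 lower (7.09%, against 3.56%). Both called genes among the other conjugating enzymes were methyltransferases. *Tpmt*, which methylates thiopurine drugs, was at 19.4 and 24.3 FPKM in the controls and rose to 38.3, 40.5 and 56.7 FPKM in the knockouts, with a log2 fold change of 1.03 (limma adjusted p = 0.043). *Nnmt*, which methylates nicotinamide, was at 62.3 and 63.4 FPKM in the controls and at 106, 108 and 124 FPKM in the knockouts, a log2 fold change of 0.84 (limma adjusted p = 0.019). The third was *Alas1*, the first enzyme of haem synthesis and a target of the receptors CAR and PXR, which was at 94.7 and 150 FPKM in the controls and rose to 223, 326 and 368 FPKM in the knockouts, with a log2 fold change of 1.33 (limma adjusted p = 0.048). These 3 calls were lost with no filter, without a trend, and in both distinct fits that left out 1 control value, where the log2 fold changes were 0.87 to 1.20 for *Tpmt*, 0.83 to 0.85 for *Nnmt* and 1.0 to 1.66 for *Alas1*. With a pseudocount of 1 FPKM *Tpmt* and *Alas1* missed the threshold (limma adjusted p = 0.053 and 0.056), and with the shift between groups removed *Alas1* did (limma adjusted p = 0.053).

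No supply gene of the 3 pathways was called by limma. At an unadjusted p under 0.05 in limma, 1 of 10 sulfate and PAPS genes was higher (10%, against 6.08% of all genes). By the same measure 1 of 12 glutathione genes was lower (8.33%, against 3.56%). For UDP-glucuronic acid, *Ugp2* and *Ugdh*, which make UDP-glucose and oxidize it, had log2 fold changes of -0.07 and 0.11, and the median over 8 genes was 0.06. For sulfonation, *Papss2*, which makes PAPS, was at 57.8 and 69.7 FPKM in the controls and at 77.8, 82.0 and 82.4 FPKM in the knockouts, without overlap (log2 fold change 0.35, limma adjusted p = 0.40), and the median over 10 genes was 0.08. For glutathione, the median over 12 genes was -0.01, and *Gpx1* and *Gpx4*, the most abundant ones, had 0.03 and -0.00. *Gclc*, the catalytic subunit of the first step of glutathione synthesis, named after its values were seen, was at 108 and 130 FPKM in the controls and at 71.3, 72.2 and 95.6 FPKM in the knockouts, also without overlap (log2 fold change -0.58, limma adjusted p = 0.21).

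The membrane-bound glutathione transferase *Mgst1* was at 3587 FPKM in the controls and 3577 FPKM in the knockouts, a level above that of any member by symbol, with a log2 fold change of -0.00. The median over the 4 tested genes of its list was -0.19, over 17 other conjugating enzymes 0.03 and over 8 deconjugation and mercapturate genes -0.02. In the list of *Mgst1*, *Mgst3* had a log2 fold change of -0.60 without overlap (limma adjusted p = 0.19). It was named after its values were seen. The median over the 14 export genes was 0.05, with *Slco1b2*, an uptake carrier, at 0.28 and the bile salt pump *Abcb11* at 0.19 (limma adjusted p = 0.61 and 0.71). Over 17 CAR and PXR target genes outside the families the log2 fold change was above 0 for 14 (82.4%, against 54.9% of all genes; median 0.24), and 1 was called. At an unadjusted p under 0.05 in limma 4 were higher (23.5%, against 6.08% of all genes) and 1 lower (5.88%, against 3.56%). Over 16 NRF2 target genes the median was -0.14, and none was called by limma. Of these 4 were above 0 (25%, against 54.9% of all genes) and 12 below. At an unadjusted p under 0.05 in limma 4 were lower (25%, against 3.56% of all genes). The most abundant genes of this list, *Ephx1* and *Osgin1*, had log2 fold changes of -0.07 and -0.28. The smallest adjusted p of this list was that of *Me1*, the malic enzyme, named after its values were seen, which was at 53.3 and 73.2 FPKM in the controls and at 36.5, 37.4 and 40.2 FPKM in the knockouts (log2 fold change -0.71, limma adjusted p = 0.088). Among 23 receptors and factors that control conjugation genes none was called. At an unadjusted p under 0.05 in limma 1 was higher (4.35%, against 6.08% of all genes) and 2 were lower (8.7%, against 3.56%). The 2 most abundant, *Cebpa* and *Hnf4a*, had log2 fold changes of -0.37 and 0.23 (limma adjusted p = 0.54 and 0.63). *Foxa3* and *Bcl6*, also named after their values were seen, had 0.54 and -1.09 without overlap (limma adjusted p = 0.13 and 0.23). Of 4 tested AHR targets none was called, with *Cyp1a2* at 0.20 and *Nqo1*, also an NRF2 target, at -0.33. The lists share *Gclc*, *Nqo1* and transport genes with each other, and no test of a whole list was run.

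**Figure D4:**
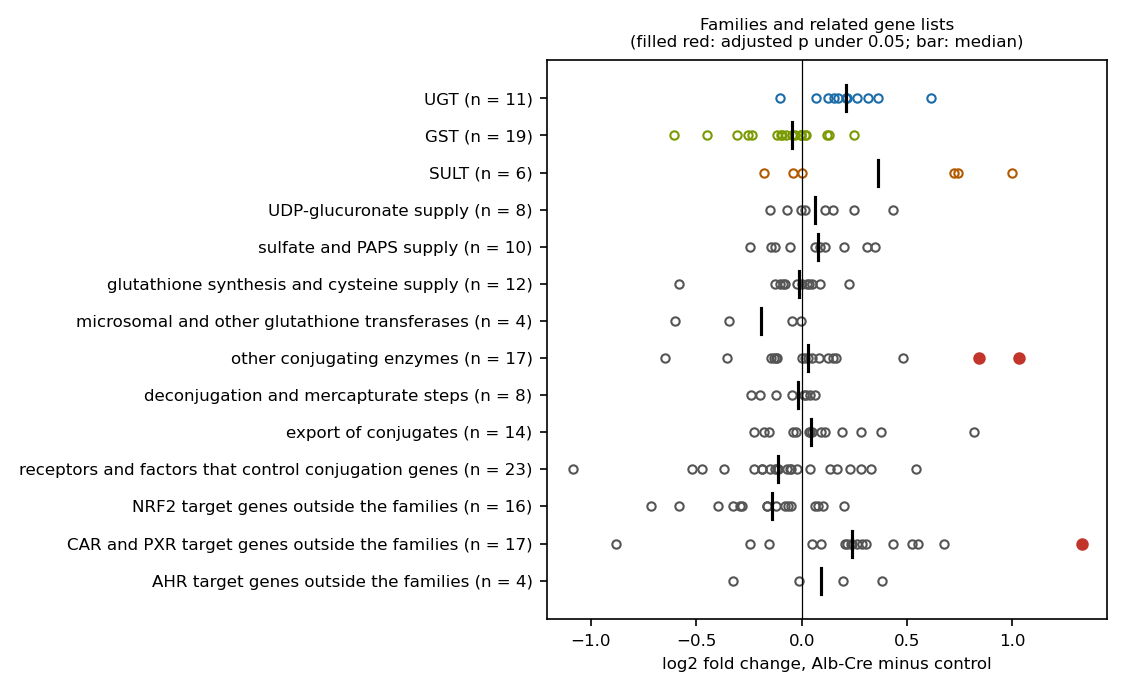
Log2 fold change (knockout minus control) of each tested gene in the 3 families and in the 11 related lists, with a bar at the median of each list and filled red points for genes with a limma adjusted p under 0.05. The 3 filled points are *Tpmt*, *Nnmt* and *Alas1*, and none belongs to the 3 families.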

How the data were processed

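RNA-seq covered livers of 3 *Lifr* fl/fl;Alb-Cre mice and 2 *Lifr* fl/fl controls. Per the submitters' processing notes and the study's methods, the authors checked reads (FastQC 0.11.5), aligned them against mm10 (TopHat2 2.1.1), kept unique reads with SAMtools 1.5 and estimated FPKM with Cufflinks 2.2.1. The deposited table holds these FPKM values. Its 3 columns with the authors' log2 fold, p-value and significance mark were not used. The table holds no counts, so precision can be judged only from the spread among 2 or 3 mice and counting intervals are not given.

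The 11687 genes whose 5 values averaged 0.5 FPKM or more were fitted on log2(FPKM + 0.1) by lmFit and trended eBayes of limma 3.58.1 (R 4.3.3), with p-values adjusted by Benjamini-Hochberg over these genes and a threshold of 0.05. Fold changes on this scale understate the change of low genes. SDs are on the FPKM scale, and intervals are 95% intervals of the log2 fold change, not adjusted for the number of genes. Alternatives tried were a pseudocount of 1 FPKM, one of 0.01 FPKM, no filter (17270 genes above 0 in at least 1 value), a minimum of 1 FPKM, no trend, removal of the median shift, removal of 3 genes listed at 0 in 1 group, an adjusted p under 0.1, and leave-one-out draws, each dropping 1 value per gene from 1 group (5 draws per group, which gave 2 distinct fits for the controls and 3 for the knockouts). The first value dropped was picked at random for each gene, and later draws moved to its next value. A draw thus mixes genes that lost a low value with genes that lost a high one. Data with 11687 genes were also simulated. Spreads were those of the knockout values, with the largest capped, shuffled over genes and used for both groups. Changes were placed only in genes averaging at least 1 FPKM. At log2 changes of 0.5, 1, 2 and 3, 3, 32, 46 and 50 of 50 genes were recovered, and 2 of 11487 unchanged genes were called. These counts need not hold for the families, whose spreads can differ from the simulated ones.

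Named genes are the 5 most abundant tested members of each family, up to 3 members each way without overlap, and from each list the called genes or the 2 most abundant. Other members are named to account for the families. The members, lists and alternatives were chosen with earlier results of these data known. Coordinates and promoter sequences are from RefSeq (GRCm38.p6, the assembly of mm10), which placed all 51 members and gave 61 promoter windows for 51 member symbols. Transcripts are from GENCODE M21.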

Additional observations from a re-analysis of the deposited data

How the results depend on the processing

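With 5 values small differences can be missed. The simulation recovered 3 of 50 genes at a log2 change of 0.5, but its spreads were shuffled over genes and do not describe these families. A member that missed the threshold is therefore not shown to be equal in both groups. UGT counts were 0 higher and 0 lower under every alternative. SULT members called higher numbered 1 (*Sult1d1*) with a pseudocount of 0.01 FPKM and at an adjusted p under 0.1 (0.582% of all genes higher), and 0 to 1 in leave-one-out draws. GST members called lower numbered 0 to 1 in those draws (*Gstp2*).

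Genes of the related lists called higher numbered 1 with a pseudocount of 1 FPKM, 0 with no filter, 0 without a trend, 2 with the shift removed and 0 to 3 in leave-one-out draws, and those called lower 1 at an adjusted p under 0.1 and 0 to 1 in the draws. *Lifr* was at -1.71 with no filter (limma adjusted p = 0.062) and ranged from -1.89 to -1.52 in the draws. Over all genes 66 were called, 60 without the 3 genes listed at 0 in 1 group, 51 and 75 with a pseudocount of 1 and 0.01 FPKM, 32 without a trend, 16 with no filter, 15 or 16 without 1 control value and 60 to 96 without 1 knockout value. No result called in the main comparison changed sign. No paired analysis was possible because the columns of the table follow no single mouse. For the same reason, no named mouse could be left out.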
